A study of Mus musculus with 12 samples.

Results

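The genes of the proteasome and the immunoproteasome were followed in airway macrophages (AMs) of wild-type (WT) and Scnn1b-Tg mice, kept in medium or given lipopolysaccharide (LPS). Members were the protein-coding genes whose symbol starts with Psma, Psmb, Psmc, Psmd or Psme and a digit. Of 20551 genes in the table, 44 met this rule, and 43 of them encode parts, assembly chaperones or activators of the proteasome. Psmc3ip, which acts in meiotic recombination, was matched by its name alone. The 44 genes fell into 8 alpha ring genes of the 20S core (among them Psma8, a form of the testis), 7 constitutive and 3 inducible beta genes of the 20S core, 6 ATPases and 11 other subunits of the 19S regulatory particle, 3 chaperones of 19S assembly, 5 activators, and Psmc3ip. A further gene of the rule, Psmb11, was not analysed here.

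RNA was sequenced from 12 libraries in 4 groups of 3. By the study's methods all animals were 6-week-old C57BL/6 mice, and its reporting summary gives females alone for the sequencing. Scnn1b-Tg mice carry an Scnn1b transgene, a subunit of the epithelial sodium channel, which the club cell secretory protein (CCSP) promoter drives in airway epithelium and not in AMs, and the WT mice were littermates without it. Lavages were pooled over 3 to 4 animals (per the labels), and each of 6 pools (WT 16, 17 and 18, and Scnn1b-Tg 17, 18 and 19) gave 1 library after 12 h in medium and 1 after 12 h with LPS of P. aeruginosa at 100 ng/ml. By the labels, batch 1 held pools WT 16, WT 17 and Tg 17, and batch 2 held WT 18, Tg 18 and Tg 19. The study's methods adjusted the LPS experiment for the date of library preparation, and do not say which pools shared a date. The labels describe adherent lavage cells, while the study's methods describe AMs sorted by flow cytometry from digested lungs.

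The proteasome degrades proteins marked with ubiquitin. The barrel of the 20S core is closed at its ends by alpha rings and holds its cutting sites on the beta subunits Psmb5, Psmb6 and Psmb7. The 19S particle binds, unfolds and feeds in the substrate. Interferon and other inflammatory signals raise the inducible subunits Psmb8 (LMP7), Psmb9 (LMP2) and Psmb10 (MECL-1), which take the places of Psmb5, Psmb6 and Psmb7 in newly built cores. Such immunoproteasomes, often capped by the PA28 activator of Psme1 and Psme2, yield peptides that suit presentation on major histocompatibility complex (MHC) class I. Macrophages carry both kinds of core.

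Psmb8 and Psmb9 lie near each other in the class II region of the MHC, at chr17:34197721-34201454 (plus strand) and chr17:34181987-34187764 (minus strand), and Psmb10 lies apart at chr8:105935735-105938444 (minus strand; mm10, GENCODE M21). Psme1 (chr14:55578123-55581529, plus strand) and Psme2 (chr14:55587441-55591113, minus strand) are also neighbours. Promoter windows from RefSeq (GRCm38.p6, the assembly of mm10), from 250 bases before to 50 after a transcript start, were given for 37 of the 44 members, in 40 entries. Psma8, Psmb1, Psmb2, Psmb7, Psmc3, Psmd3 and Psmd7 had none. Both strands were searched for 4 short motifs. The interferon-gamma activated site TTCNNNGAA stood in 8.30% of all 32851 windows and in those of Psmb8 and Psmd2. The interferon-stimulated response element core (GAAA, any 2 bases, GAAA) stood in 3.44% of all windows and in those of Psmb3, Psmd4, Psmd9 and Psme1. The antioxidant response element core TGACNNNGC, bound by Nfe2l2 and Nfe2l1, stood in 12.4% of all windows and in those of Psmb5, Psmb6, Psmc6, Psmd9, Psmd12 and Psme4. The NF-kB site (GGGA, any base, TTTCC) stood in 0.411% of all windows and in no member's window. The windows printed here, each cut to 30 bases after the start, are of an inducible subunit, a PA28 subunit and 2 constitutive cutting subunits, and the capitals mark the interferon-gamma activated site in Psmb8, the interferon-stimulated core (read on the other strand) in Psme1 and the antioxidant core in Psmb6 and Psmb5. Their positions are chr17:34197945-34198224 (plus strand), chr14:55578244-55578523 (plus), chr11:70525107-70525386 (plus) and chr14:54617966-54618245 (minus). These matches describe letters and were not tested for binding.
Psmb8: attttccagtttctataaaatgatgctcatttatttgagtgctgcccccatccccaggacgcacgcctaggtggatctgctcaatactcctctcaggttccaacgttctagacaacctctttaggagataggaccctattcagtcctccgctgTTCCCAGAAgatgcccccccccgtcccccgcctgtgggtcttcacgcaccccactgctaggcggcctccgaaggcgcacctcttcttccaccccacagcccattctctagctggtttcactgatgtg
Psme1: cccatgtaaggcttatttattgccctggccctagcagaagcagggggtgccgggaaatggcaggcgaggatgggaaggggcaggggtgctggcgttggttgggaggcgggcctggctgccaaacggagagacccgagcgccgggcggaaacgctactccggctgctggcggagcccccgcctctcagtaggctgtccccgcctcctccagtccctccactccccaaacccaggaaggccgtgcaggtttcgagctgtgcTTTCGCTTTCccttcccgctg
Psmb6: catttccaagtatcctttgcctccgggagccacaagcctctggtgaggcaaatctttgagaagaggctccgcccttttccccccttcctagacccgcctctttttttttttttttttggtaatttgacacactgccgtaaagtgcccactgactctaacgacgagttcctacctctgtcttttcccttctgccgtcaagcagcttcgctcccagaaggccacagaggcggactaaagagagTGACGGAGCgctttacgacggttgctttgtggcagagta
Psmb5: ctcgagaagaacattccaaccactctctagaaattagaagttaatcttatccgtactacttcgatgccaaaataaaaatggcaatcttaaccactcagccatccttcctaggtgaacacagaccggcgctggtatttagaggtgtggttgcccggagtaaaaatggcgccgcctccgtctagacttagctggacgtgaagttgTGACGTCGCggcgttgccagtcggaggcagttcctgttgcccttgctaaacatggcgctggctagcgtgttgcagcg

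Libraries held 48.2 to 60.9 M deposited counts and 14918 to 16165 genes with a count. Every one of the 44 members passed the low-count filter. The lowest count of a member in any library was 72, and 861 once Psma8 and Psmc3ip are left aside. All 12 airway macrophage markers were detected, with summed levels of 14457 to 15121 counts per M counts (CPM) in WT medium and 9340 to 11325 CPM after LPS, and of 17056 to 20747 CPM in Scnn1b-Tg medium and 10934 to 16306 CPM after LPS. Siglecf, a defining marker among them, stood at 103 to 128 CPM in medium and at 5.08 to 13.5 CPM in LPS. Pparg and Fabp4 were also lower with LPS in both genotypes. Marco went the other way, from 587 to 661 CPM in medium to 1131 to 1348 CPM in LPS in WT libraries. In Scnn1b-Tg libraries Marco stood at 382 to 725 CPM and at 1088 to 2220 CPM. Car4 was also higher with LPS in both genotypes, and Chil3 made up most of the sums in medium. Neutrophil markers (8 of 10 in the table) summed to 15.2 to 37.8 CPM, with S100a9 at 0 in every WT library and at most 0.0951 CPM in Scnn1b-Tg libraries. T or NK cell markers (8 of 10) summed to 144 to 210 CPM in medium and to 13.4 to 37.7 CPM in LPS, of which Cd2 made up nearly all, since the other 7 stayed at or below 0.677 CPM. Monocyte markers (8 of 8) summed to 47.4 to 163 CPM, dendritic cell markers (7 of 8) to 2.88 to 7.42 CPM in medium and 9.57 to 20.3 CPM in LPS, B cell markers (6 of 7) to at most 2.20 CPM, and eosinophil markers (3 of 5) to at most 20.5 CPM. Epithelial markers (9 of 9) summed to 81.8 to 121 CPM in WT and 36.6 to 76.1 CPM in Scnn1b-Tg libraries. Scnn1b, which the transgene raises outside AMs, stood at 0 to 0.755 CPM and was not called in any comparison. The part of these levels in the results was not tested, and in bulk RNA a change in the share of a cell type cannot be told apart from a change in RNA per cell.

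The first comparison asked how proteasome genes responded to LPS in each genotype. In WT AMs 22 of 44 members rose and 0 fell, beside 15.5% of all 13729 tested genes that rose and 16.2% that fell. In Scnn1b-Tg AMs 34 of 44 members rose and 0 fell, beside 19.3% and 18.7% of all genes (edgeR quasi-likelihood test, adjusted p under 0.05). No member fell at an unadjusted p under 0.05 or with DESeq2 in either genotype. The median log2 fold change of the members was 0.24 in WT and 0.46 in Scnn1b-Tg AMs, against 0.00 and -0.02 over all genes. Counted by pool, 40, 33 and 38 of 44 members were higher with LPS in pools WT 16, 17 and 18, and 40, 42 and 43 in pools Tg 17, 18 and 19, while 48.1% to 50.1% of all genes were. The 22 members called in WT were also called in Scnn1b-Tg AMs. The other 12 called in Scnn1b-Tg AMs were Psma4, Psma6, Psmb4, Psmb7, Psmc3, Psmd2, Psmd4, Psmd5, Psmd6, Psmd11, Psmd13 and Psme3, and for none of them was the difference between the genotypes itself called. With the pool as a replicate block, Psma6, Psmb4, Psmd2 and Psmd4 were called in WT AMs too. When library totals alone scaled the libraries, 38.7% of all called genes were higher in WT and 38.9% in Scnn1b-Tg AMs, against 48.9% and 50.8% with the main scaling. The median of all genes then moved from -0.02 to -0.12 in Scnn1b-Tg AMs, and relative to that median the members lay at 0.47 under both scalings.

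**Figure D1:**
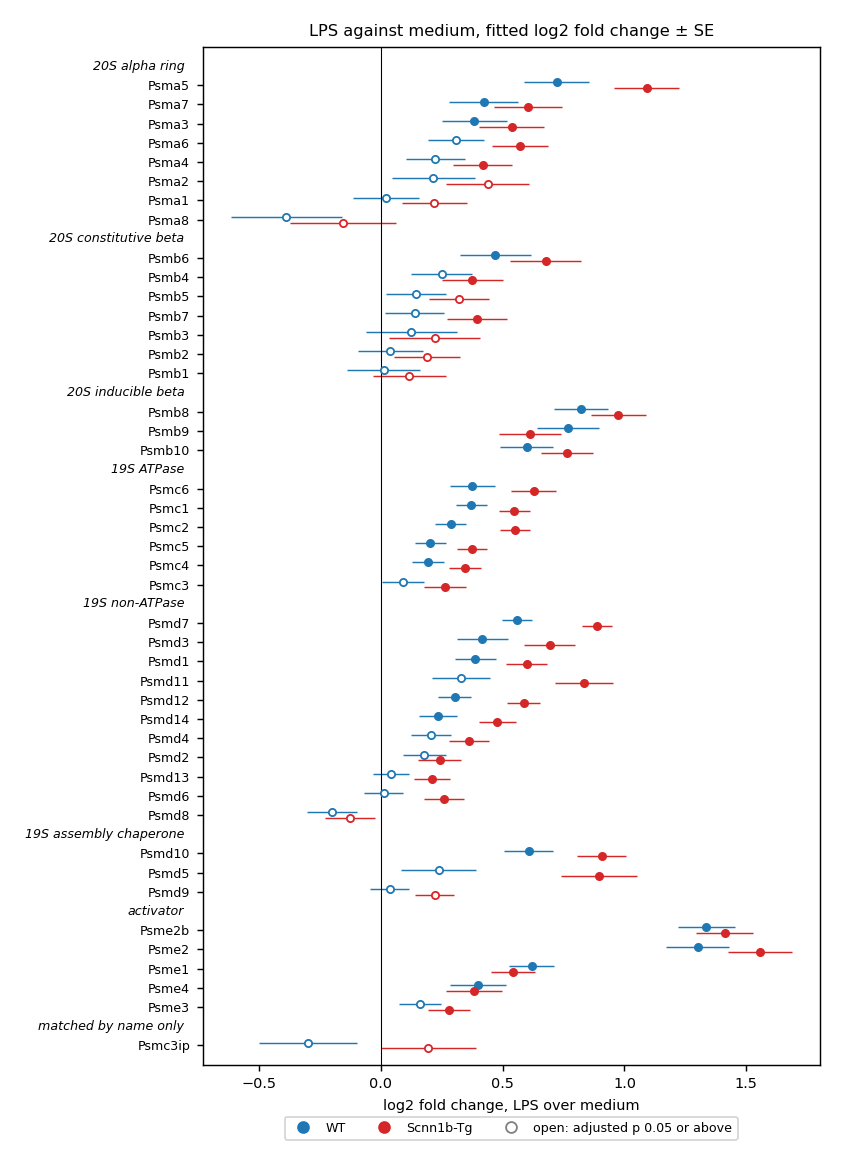
Fitted log2 fold change (LPS over medium, x axis) with its standard error for each of the 44 members (y axis, ordered within class), in WT (blue) and Scnn1b-Tg (red) AMs, with filled points where the adjusted p was under 0.05. Filled points number 22 in WT and 34 in Scnn1b-Tg AMs, all to the right of 0, with Psme2 and Psme2b farthest right.

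The 3 inducible subunits rose in both genotypes. In WT AMs Psmb8, which brings chymotrypsin-like cutting to the immunoproteasome, stood at 242, 222 and 327 CPM in medium and at 455, 396 and 540.5 CPM in LPS (pools 16, 17 and 18). Scnn1b-Tg libraries held 282, 287 and 342 CPM in medium and 499, 583 and 723 CPM in LPS (pools 17, 18 and 19). Every LPS library lay above every medium library of its genotype. The fitted rise was 0.82 ± 0.11 log2 units in WT (± SE; adjusted p = 0.00020, edgeR) and 0.97 ± 0.11 in Scnn1b-Tg AMs (adjusted p = 4.2e-05).

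Psmb9 was the scarcest of the 3. Its level was 23.8, 17.5 and 31.7 CPM in WT medium, 33.7, 37.6 and 52.8 CPM in WT LPS, 29.0, 35.6 and 39.2 CPM in Scnn1b-Tg medium and 43.2, 51.8 and 64.3 CPM in Scnn1b-Tg LPS. Medium and LPS libraries did not overlap within a genotype, and the log2 fold changes were 0.77 ± 0.13 in WT (adjusted p = 0.00086, edgeR) and 0.61 ± 0.13 in Scnn1b-Tg AMs (adjusted p = 0.0027). Its exons overlap those of Tap1, a peptide transporter gene on the opposite strand, over 5.8% of their length. Psmb10 stood at 144, 125 and 206 CPM in WT medium and 224, 182 and 313 CPM in WT LPS, so that pool 18 in medium lay above pool 17 in LPS, although each pool rose. In Scnn1b-Tg AMs it stood at 169.7, 209 and 212 CPM in medium and 263, 343 and 407 CPM in LPS, without overlap. The changes were 0.60 ± 0.11 (adjusted p = 0.0015, edgeR) and 0.76 ± 0.11 (adjusted p = 0.00021). Without the batch term the WT call for Psmb10 was lost (adjusted p = 0.081), as was the Scnn1b-Tg call for Psmb9 (adjusted p = 0.063).

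**Figure D2:**
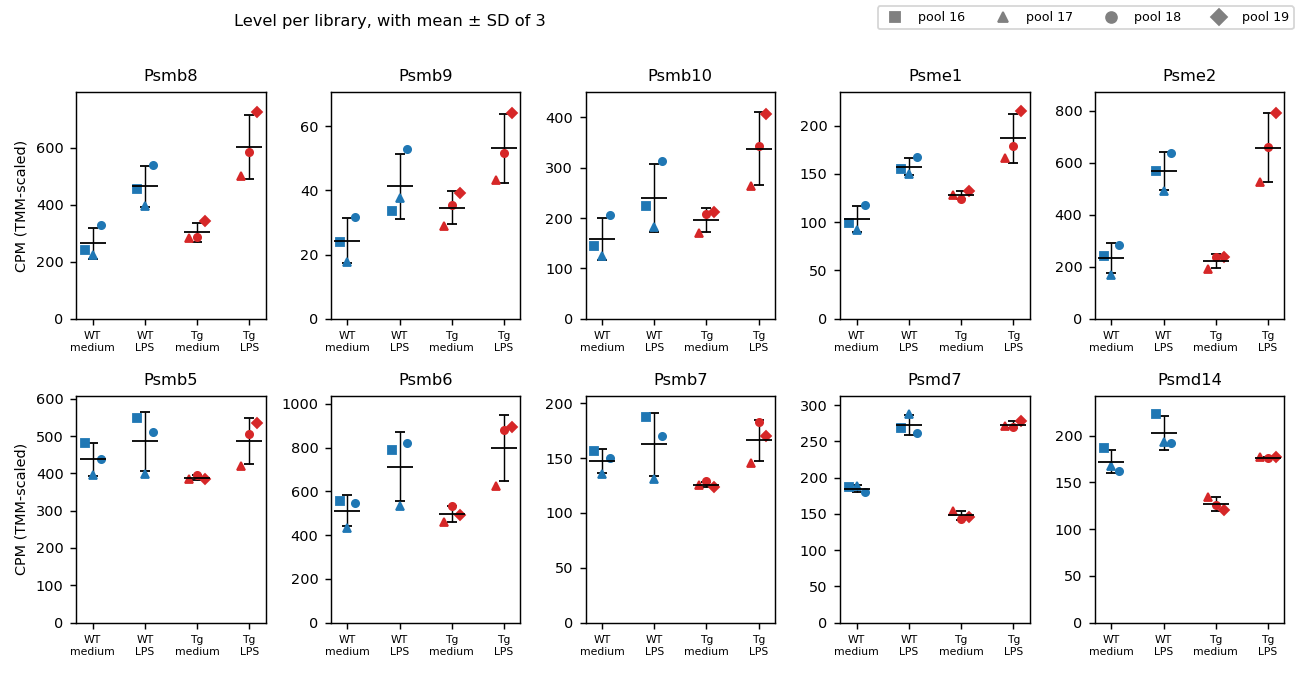
CPM (TMM-scaled, linear axis from 0) of 10 members in each library, with markers for the pool and bars for the mean ± SD of 3 libraries, WT in blue and Scnn1b-Tg in red. Psmb8, Psmb9, Psme1, Psme2, Psmd7 and Psmd14 separate LPS from medium in both genotypes, while the WT groups of Psmb5, Psmb6, Psmb7 and Psmb10 overlap.

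Psmb5 and Psmb7 had smaller estimates than their inducible counterparts in both genotypes, and Psmb6 a smaller one than Psmb9 in WT and a larger one in Scnn1b-Tg AMs (0.68 against 0.61). These differences were not tested. Psmb5, whose place Psmb8 takes, stood at 482, 394 and 438 CPM in WT medium and 549, 398 and 510.2 CPM in WT LPS, and was not called (log2 fold change 0.15 ± 0.12, adjusted p = 0.41, edgeR). In Scnn1b-Tg AMs it stood at 385, 395 and 386 CPM in medium and 419, 506 and 535 CPM in LPS, a log2 fold change of 0.32 ± 0.12 that also missed the threshold (adjusted p = 0.061). Although these Scnn1b-Tg groups did not overlap, the call depended on the setting. It passed without WT medium 16 (adjusted p = 0.0496), WT LPS 16 (0.031), WT LPS 17 (0.027) or Tg LPS 17 (0.045), with the pool as a replicate block (0.011), with voom and the pool as a random effect (0.019), with the 6 Scnn1b-Tg libraries alone (0.022), with DESeq2 (0.049) and without both pools numbered 17 (0.0056).

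Psmb6, the counterpart of Psmb9, rose in both genotypes, from 557, 432 and 547 CPM to 787, 531 and 823 CPM in WT and from 459, 533 and 494 CPM to 626, 880.5 and 894 CPM in Scnn1b-Tg AMs. Pool 17 in WT LPS lay within the range of WT medium. Its log2 fold changes were 0.47 ± 0.14 (adjusted p = 0.028, edgeR) and 0.68 ± 0.14 (adjusted p = 0.0034). The WT call was lost without WT medium 17 (adjusted p = 0.11), WT medium 18 (0.12), WT LPS 16 (0.11) or WT LPS 18 (0.091), without the batch term (0.075), with library totals alone (0.0700) and with the 6 WT libraries alone (0.092).

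Psmb7, the counterpart of Psmb10, stood at 157, 136 and 150.4 CPM in WT medium and at 187, 131 and 169.9 CPM in WT LPS (0.14 ± 0.12, adjusted p = 0.43, edgeR). In Scnn1b-Tg AMs it rose from 125, 129 and 124 CPM to 145, 183 and 170.4 CPM (0.40 ± 0.12, adjusted p = 0.025). That call was lost without Tg medium 18 (adjusted p = 0.068), Tg medium 19 (0.083), Tg LPS 18 (0.087) or Tg LPS 19 (0.063), and with library totals alone (0.092). Over the 7 constitutive beta genes, 1 was called in WT and 3 in Scnn1b-Tg AMs, with medians of 0.14 and 0.32 and ranges of 0.01 to 0.47 and 0.12 to 0.68, while the 3 inducible genes had medians of 0.77 and 0.76.

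The balance within each pair was described by ratios of CPM per kb of exon, with no test. Some of these counts are uncertain: Psmb5 shares 22.2% of its stretches of 100 exon bases with Gm3375 and Mir686, and exons of Gm20496 overlap 14.7% of those of Psmb8, Mir686 12.1% of those of Psmb5 and Nek6 11.8% of those of Psmb7. Psmb8 over Psmb5 rose in each of the 6 pools, by 0.50 to 0.82 log2 units. Psmb10 over Psmb7 also rose in each pool, by 0.21 to 0.59. Psmb9 over Psmb6 had no common direction, with changes of 0.00, 0.80 and 0.15 in pools WT 16, 17 and 18 and of 0.13, -0.18 and -0.14 in pools Tg 17, 18 and 19 beside the rise of Psmb6 itself. The summed share of the 3 inducible genes among the 6 was 15.6%, 16.9% and 21.6% in WT medium and 20.2%, 23.5% and 25.3% in WT LPS. In Scnn1b-Tg AMs it was 21.2%, 22.1% and 24.5% in medium and 27.1%, 26.3% and 29.5% in LPS. Each pool gained, by 4.99 ± 1.46 percentage points in WT and 5.05 ± 0.900 in Scnn1b-Tg AMs (mean ± SD, n = 3 pools each). The WT medium and Scnn1b-Tg medium ranges overlapped, and the Scnn1b-Tg LPS libraries all lay above the WT LPS libraries. The share depended on the length used, and with the median length of coding transcripts its group means were 26.2%, 32.8%, 31.7% and 37.5% (WT medium, WT LPS, Scnn1b-Tg medium, Scnn1b-Tg LPS).

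**Figure D3:**
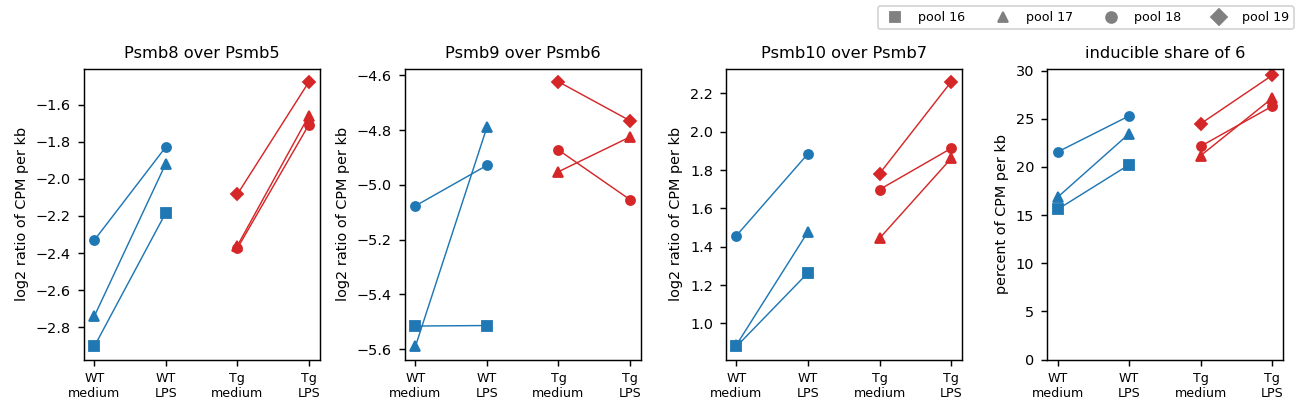
Log2 ratios of CPM per kb of exon for the 3 pairs of inducible over constitutive subunit, and the inducible share of the 6 genes in percent (last panel, axis from 0), with a line joining the medium and LPS libraries of each pool (WT blue, Scnn1b-Tg red). All 6 lines rise for Psmb8 over Psmb5, Psmb10 over Psmb7 and the share, and the lines of Psmb9 over Psmb6 run both ways.

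Psme2 and Psme2b showed the largest responses to LPS of all 44 members in both genotypes. Psme2, which encodes the PA28 beta chain, stood at 243, 169.2 and 283 CPM in WT medium and 569, 492 and 639 CPM in WT LPS. Scnn1b-Tg libraries held 193, 237 and 237 CPM in medium and 525, 659 and 790.0 CPM in LPS. The groups were far apart, with log2 fold changes of 1.30 ± 0.13 in WT (adjusted p = 1.9e-05, edgeR) and 1.56 ± 0.13 in Scnn1b-Tg AMs (adjusted p = 3.5e-06).

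Psme2b, a gene of like sequence on chromosome 11, shares 52.0% of its stretches of 100 exon bases with Psme2, so reads may be divided between them and each value is uncertain. Psme2b changed by 1.34 ± 0.12 and 1.41 ± 0.12 log2 units. The sum of both genes was 321 ± 76.3 CPM in WT medium and 791 ± 115 CPM in WT LPS, against 324 ± 34.4 and 929.8 ± 177 CPM in the Scnn1b-Tg groups (mean ± SD, n = 3 each), a rise of 1.21 to 1.49 log2 units in WT pools and 1.39 to 1.68 in Scnn1b-Tg pools. Psme1, the PA28 alpha chain, stood at 98.6, 91.8 and 118 CPM in WT medium and 155, 149.6 and 167 CPM in WT LPS. The Scnn1b-Tg levels were 128, 123 and 132 CPM in medium and 166, 179 and 215 CPM in LPS. The change was 0.62 ± 0.09 in WT (adjusted p = 0.00037, edgeR) and 0.54 ± 0.09 in Scnn1b-Tg AMs (adjusted p = 0.00071). The beta chain thus rose by more log2 units than the alpha chain in every pool, with 1.17 to 1.74 against 0.38 to 0.71, although this difference was not tested.

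Psme3, the nuclear PA28 gamma chain, stood at 165, 190.1 and 174 CPM in WT medium and 187, 224 and 182 CPM in WT LPS (0.16 ± 0.09, adjusted p = 0.19, edgeR), and rose in Scnn1b-Tg AMs from 161, 153 and 149.6 CPM to 204, 175 and 184 CPM (0.28 ± 0.09, adjusted p = 0.025). The latter call was lost without any of Tg medium 17 (adjusted p = 0.089), Tg medium 18 (0.058), Tg medium 19 (0.068), Tg LPS 17 (0.097) and Tg LPS 19 (0.061), with library totals alone (0.10), without the batch term (0.054) and without both pools numbered 17 (0.052). Psme4, the PA200 activator, stood at 56.9, 67.1 and 53.3 CPM in WT medium and at 75.4, 98.0 and 62.8 CPM in WT LPS, and in Scnn1b-Tg AMs at 65.7, 47.1 and 51.1 CPM and at 92.5, 59.6 and 63.3 CPM. It was higher with LPS in every pool, although the groups overlapped in both genotypes. Its log2 fold changes were 0.40 ± 0.12 (adjusted p = 0.022, edgeR) and 0.38 ± 0.12 (adjusted p = 0.023). The WT call was lost without WT medium 16 (adjusted p = 0.089), WT medium 17 (0.0501), WT LPS 17 (0.085) or WT LPS 18 (0.059), and the Scnn1b-Tg call without Tg medium 17 (0.073), Tg medium 18 (0.079) or Tg LPS 17 (0.11), and with library totals alone (0.064). Without the batch term both calls were lost (adjusted p = 0.17 in each genotype).

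In the alpha ring, 3 of 8 genes were called higher in WT and 5 of 8 in Scnn1b-Tg AMs. Psma5 led them, from 158, 126 and 155 CPM to 268, 187 and 271 CPM in WT (0.72 ± 0.13, adjusted p = 0.0017, edgeR) and from 119, 135 and 122 CPM to 222, 284 and 301 CPM in Scnn1b-Tg AMs (1.09 ± 0.13, adjusted p = 7.3e-05). Medium and LPS libraries did not overlap in either genotype. Psma5 shares 23.7% of its 100-base stretches with Gm8394 and Gm12989, which makes its count uncertain. Psma8 was near the bottom of the members, at 2.34 to 4.68 CPM, and was not called. Apart from Psma5, the alpha ring ranged from -0.39 (Psma8) to 0.42 (Psma7) in WT and from -0.15 (Psma8) to 0.60 (Psma7) in Scnn1b-Tg AMs. Psmc3ip, at 1.44 to 2.54 CPM, was not called either, with -0.30 ± 0.20 and 0.20 ± 0.20 log2 units.

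The 19S particle responded as a broad group of modest changes. In WT AMs 5 of 6 ATPases, 5 of 11 other subunits and 1 of 3 assembly chaperones were called higher, and in Scnn1b-Tg AMs 6 of 6, 10 of 11 and 2 of 3. The median of the 17 subunits was 0.24 in WT and 0.48 in Scnn1b-Tg AMs. The ATPases, which form the unfolding ring, ranged from 0.09 to 0.38 in WT and from 0.26 to 0.63 in Scnn1b-Tg AMs. Psmd7, a scaffold partner of the deubiquitinase Psmd14, stood at 187, 188 and 179.7 CPM in WT medium and 269, 288 and 261 CPM in WT LPS. The Scnn1b-Tg levels were 154, 143 and 146 CPM in medium and 271, 270.0 and 279 CPM in LPS. The genotypes overlapped in LPS and not in medium, and the log2 fold changes were 0.56 ± 0.06 (adjusted p = 4.6e-05, edgeR) and 0.89 ± 0.06 (adjusted p = 9.9e-07). Psmd10 (gankyrin), a chaperone of 19S assembly, went from 88.2, 80.2 and 83.3 CPM to 138, 113 and 133 CPM in WT (0.61 ± 0.10, adjusted p = 0.00079, edgeR) and from 74.5, 80.1 and 68.9 CPM to 124, 150.3 and 146 CPM in Scnn1b-Tg AMs (0.91 ± 0.10, adjusted p = 3.3e-05). No overlap between medium and LPS was seen for Psmd10. Psmd8 was the only 19S subunit with a negative estimate in both genotypes, at -0.20 ± 0.10 and -0.13 ± 0.10, and it was not called.

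The next comparison asked whether AMs from Scnn1b-Tg mice differed from WT AMs in medium. With edgeR 0 of 44 members were called, beside 0.335% of all genes, whereas DESeq2 called 8 of 44 lower (Psmc1, Psmc2, Psmc5, Psmc6, Psmd5, Psmd7, Psmd12 and Psmd14) and none higher, beside 1.62% of all genes lower and 2.02% higher with that tool. At an unadjusted p under 0.05, 14 members were lower in Scnn1b-Tg AMs, beside 5.81% of all genes. All 14 belong to the 19S particle or its chaperones (Psmc1, Psmc2, Psmc4, Psmc5, Psmc6, Psmd1, Psmd4, Psmd5, Psmd6, Psmd7, Psmd11, Psmd12, Psmd13 and Psmd14). On the same measure 2 members, Psmb9 and Psme1, were higher, beside 7.59% of all genes, and 0 were without Tg medium 17 or without WT medium 17. For 18 members all 3 Scnn1b-Tg libraries lay below all 3 WT libraries, beside 9.38% of all genes, and for 1 member, Psme1, they all lay above, beside 9.02%. The median log2 difference of the members was -0.19, against 0.01 over all genes, and 36 of 44 estimates were negative, beside 6742 of all 13729 genes. By class the median was -0.21 in the 20S alpha ring (7 of 8 negative) and -0.16 in the constitutive beta genes (7 of 7). It was -0.21 in the 19S particle with its chaperones (19 of 20). No alpha ring or constitutive beta gene had an unadjusted p under 0.05, and their standard errors were mostly larger than those of the 19S genes. Within the batches, 36 of 44 members were lower in Scnn1b-Tg AMs in batch 1 and 38 in batch 2, with medians of -0.17 and -0.19. Of all genes 48.8% and 49.7% were lower in the 2 batches.

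Psmd14, the subunit that removes ubiquitin from the substrate, stood at 187, 167 and 163 CPM in WT medium and at 135, 125 and 120.2 CPM in Scnn1b-Tg medium. The groups did not overlap, and the log2 difference was -0.41 ± 0.08 (95% interval -0.59 to -0.24, adjusted p = 0.064, edgeR). Leaving out WT LPS 16 brought it just under the threshold (-0.42, adjusted p = 0.0498). Psmd7 (values above) differed by -0.30 ± 0.06 (adjusted p = 0.080). Psmd12, a structural subunit of the 19S lid, stood at 124, 124 and 123 CPM in WT and 99.7, 101 and 93.3 CPM in Scnn1b-Tg medium (-0.32 ± 0.07, adjusted p = 0.082, edgeR). In both batches these 3 genes were lower in Scnn1b-Tg AMs, Psmd14 by -0.39 and -0.41, Psmd7 by -0.28 and -0.31, and Psmd12 by -0.32 and -0.34.

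The inducible subunits had estimates of the other sign in medium. The log2 difference was 0.11 ± 0.11 for Psmb8, 0.36 ± 0.13 for Psmb9 and 0.17 ± 0.11 for Psmb10, with 0.26 ± 0.09 for Psme1 and -0.17 ± 0.13 for Psme2, and none was called (adjusted p from 0.25 upward, edgeR). Psmb9 differed by 0.51 in batch 1 and by 0.24 in batch 2, and Psme1 by 0.42 and 0.11. Psmb8 took opposite signs in the batches, with 0.28 and -0.06. Summed epithelial markers were lower and summed airway macrophage markers higher in the same Scnn1b-Tg medium libraries (43.1 to 76.1 against 88.7 to 110.2 CPM, and 17056 to 20747 against 14457 to 15121 CPM). Chil3 made up most of the airway macrophage sum, at 11502.5 to 14406 against 9545 to 10328.5 CPM. Pparg, Fabp4 and Car4 were also higher in Scnn1b-Tg medium without overlap, while Siglecf, Marco and Itgax overlapped between the genotypes. Summed dendritic cell markers (5.29 to 7.42 against 2.88 to 3.84 CPM) and neutrophil markers (27.4 to 37.8 against 20.7 to 24.2 CPM) were also higher in Scnn1b-Tg medium libraries without overlap. The part of these marker levels in the differences was not tested.

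**Figure D4:**
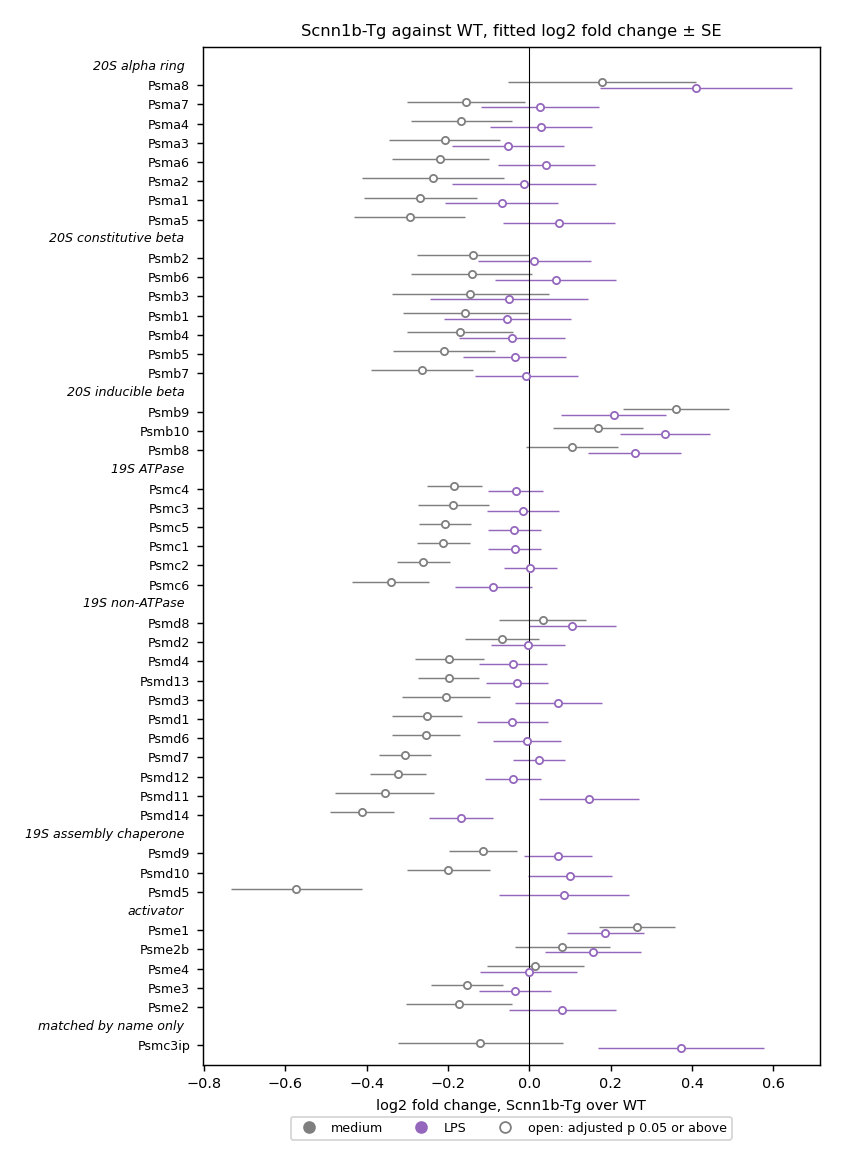
Fitted log2 fold change (Scnn1b-Tg over WT, x axis) with its standard error for each member (y axis, by class) in medium (grey) and LPS (purple), all points open because no adjusted p was under 0.05. In medium 36 of 44 points lie left of 0. In LPS 22 lie on each side, from -0.17 (Psmd14) to 0.41 (Psma8), with the 3 inducible subunits right of 0.

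The genotypes were also compared after LPS. Of 44 members 0 were called by edgeR and 0 by DESeq2, beside 0.051% of all genes with edgeR and 0.765% higher and 0.299% lower with DESeq2, and 2 (Psmb8 and Psmb10) had an unadjusted p under 0.05, beside 7.12% of all genes. The median log2 difference was 0.00 with 22 positive and 22 negative estimates, and the batches differed, with 32 members lower in Scnn1b-Tg AMs in batch 1 and 10 in batch 2. Of all genes 46.3% and 47.4% were lower in batches 1 and 2. Psmb10 was 0.33 ± 0.11 log2 units higher in Scnn1b-Tg AMs (95% interval 0.09 to 0.58, adjusted p = 0.46, edgeR), with 0.38 and 0.26 in the batches. Psmb8 was 0.26 ± 0.11 higher (95% interval 0.01 to 0.51, adjusted p = 0.69, edgeR), with 0.23 and 0.26 in the batches. Psmb9 differed by 0.21 ± 0.13, Psme1 by 0.19 ± 0.09 and Psme2 by 0.08 ± 0.13. Psmd14 had the next lowest p, at 223, 193 and 192 CPM in WT and 177, 176 and 176 CPM in Scnn1b-Tg LPS libraries, a difference of -0.17 ± 0.08 (95% interval -0.34 to 0.01, adjusted p = 0.72, edgeR). Its groups did not overlap. These intervals do not show that the genotypes were alike. In the same libraries summed dendritic cell markers were higher (13.4 to 20.3 against 9.57 to 10.3 CPM) and summed epithelial markers lower (36.6 to 68.9 against 81.8 to 121 CPM) in Scnn1b-Tg AMs without overlap, and their part was not tested.

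The difference in LPS response between the genotypes was tested as an interaction, which shares the medium and LPS libraries with the comparisons above. With edgeR 0 members were called, beside 0% of all genes, and DESeq2 called 1, Psmd7, as a larger rise in Scnn1b-Tg AMs, beside 0.415% of all genes in that direction. At an unadjusted p under 0.05, 6 members rose more in Scnn1b-Tg AMs (Psmc2, Psmd5, Psmd7, Psmd11, Psmd12 and Psmd14), beside 3.32% of all genes. This count was 15 (4.38% of all genes) without WT LPS 16, 13 (5.06%) with the pool as a replicate block, 14 (5.43%) with voom and the pool as a random effect, and 13 (3.2%) without both pools numbered 17. For 17 members the change was larger in all 3 Scnn1b-Tg pools than in all 3 WT pools, beside 9.18% of all genes. The median interaction was 0.18 with 41 of 44 estimates positive, and 34 of 44 members rose more in Scnn1b-Tg AMs in batch 1 (median 0.11) and 42 in batch 2 (median 0.23). Over all genes 6930 of 13729 estimates were positive, and in each batch 51.4% of genes had the larger change in Scnn1b-Tg AMs.

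Psmd7 changed by 0.52, 0.61 and 0.54 log2 units in pools WT 16, 17 and 18 and by 0.81, 0.92 and 0.93 in pools Tg 17, 18 and 19, without overlap. Its interaction was 0.33 ± 0.09 (95% interval 0.13 to 0.52, adjusted p = 0.52 with edgeR and 0.011 with DESeq2), and 0.24 and 0.38 within the batches. Psmd12 stood at 159, 157 and 142 CPM in WT LPS and 146, 149 and 147 CPM in Scnn1b-Tg LPS, where the genotypes overlapped, and its interaction was 0.28 ± 0.09 (adjusted p = 0.67, edgeR), with 0.20 and 0.40 within the batches. Psmd5, a chaperone of 19S assembly, stood at 70.7, 67.6 and 48.1 CPM in WT medium and 80.6, 69.7 and 68.5 CPM in WT LPS, and at 43.0, 39.2 and 38.8 CPM and 65.5, 91.2 and 67.5 CPM in the Scnn1b-Tg groups. Its interaction of 0.66 ± 0.22 was the largest of the members (adjusted p = 0.67, edgeR), with 0.49 and 0.50 within the batches.

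Pools differed among themselves, and more so for some classes of members than for others. In both pools numbered 17, which were in batch 1, the 20S genes apart from Psma8 and the inducible subunits were mostly the lowest of their group. Of 14 such genes, 13 were lowest in WT medium 17, 14 in WT LPS 17, 12 in Tg medium 17 and 14 in Tg LPS 17, with median deviations of -0.20, -0.35, -0.07 and -0.26 log2 units from the group mean. The 19S ATPases deviated by at most 0.03 in the same 4 libraries. The inducible subunits were also low there, with median deviations of -0.31, -0.22, -0.21 and -0.28 in WT medium, WT LPS, Tg medium and Tg LPS 17. The activators deviated by -0.15, -0.07, 0.00 and -0.16 in the same order. The 19S subunits other than the ATPases deviated by -0.03, 0.04, 0.06 and -0.01, and the 19S chaperones by 0.02, -0.06, 0.00 and -0.17. Single 19S genes went both ways. In WT LPS 17, Psmd1 (426 CPM) and Psmd2 (695 CPM) were the highest of their group, and Psmc6 (125 CPM) and Psmd8 (326 CPM) the lowest. Genes outside the members were not compared in this way. The inducible subunits deviated upward in WT 18 (0.41 in medium and 0.38 in LPS) and in Tg 19 (0.18 and 0.29). The cause was not tested. Leaving out both pools numbered 17, an alternative added after seeing the data, gave 22 members higher with LPS in WT and 36 in Scnn1b-Tg AMs, beside 1625 and 2192 of 13883 genes. In the genotype comparisons and the interaction 0 members were called, beside 4 of 13883 genes in each.

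**Figure D5:**
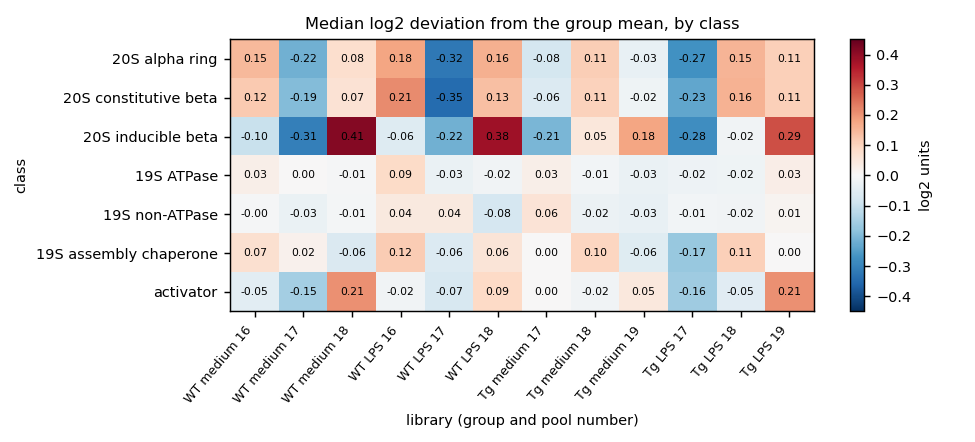
Median log2 deviation of each class of members (rows) from its group mean in each of the 12 libraries (columns), with the value printed in each cell and colour from blue (below) to red (above). The 20S classes are blue in the 4 libraries of the pools numbered 17, and the 19S ATPases stay within 0.09 of the group mean in every library.

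Levels between genes were compared per kb of exon, as CPM per kb in WT medium. Psmb5 (487 ± 48.8, SD, n = 3) and Psmb6 (274 ± 37.1) were highest and did not overlap, followed by Psma6 (184 ± 17.9), Psmb2 (147 ± 17.3), Psmd8 (136 ± 8.63) and Psme2 (131 ± 32.8), neighbours whose ranges overlapped from Psmb2 on. Psmb10 (92.9 ± 24.8) and Psmb8 (78.0 ± 16.5) lay in the middle with overlapping ranges, and Psmb9 (6.65 ± 1.94) lay near the bottom, above Psmd9 (4.33 ± 0.168), Psma8 (1.31 ± 0.182) and Psmc3ip (1.13 ± 0.0364). The order depended on the length used: with the median length of coding transcripts Psmb8 moved from rank 19 to rank 4 of 44. Psmd2 then moved from rank 7 to rank 1, Psmb5 from rank 1 to rank 3 and Psma6 from rank 3 to rank 9, while Psmb6 stayed at rank 2.

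Other genes of the pathway were taken from 3 lists. Of all genes tested, 15.5% rose and 16.2% fell with LPS in WT, and 19.3% and 18.7% in Scnn1b-Tg AMs. Of 27 genes of proteasome assembly, its regulation and ubiquitin supply, 9 rose and 1 fell with LPS in WT, and 10 rose and 1 fell in Scnn1b-Tg AMs, with medians of 0.18 and 0.19. In WT AMs the largest rises were those of Ecpas, which tethers proteasomes (0.92 ± 0.13), Txnl1, a thioredoxin-like protein that binds the 19S particle (0.71 ± 0.10), and Nfe2l1, the transcription factor that raises proteasome genes when activity is short (0.66 ± 0.13). Ddi2, the protease that activates Nfe2l1, fell by 0.58 on the log2 scale. Paaf1 was not analysed here.

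Of 18 genes of class I presentation, 13 rose in WT and 12 in Scnn1b-Tg AMs with edgeR and 0 fell, with medians of 0.73 and 0.75. None of the 18 was lower at an unadjusted p under 0.05 or with DESeq2. H2-Q7 (2.17 ± 0.18) and H2-Q6 (1.51 ± 0.18), members of a family with near-identical copies whose values are uncertain, and Nlrc5, the transactivator of class I genes (1.68 ± 0.31), rose most in WT AMs. Tap1, named for its overlap with Psmb9, rose by 1.34 ± 0.17 in WT and 1.41 ± 0.17 in Scnn1b-Tg AMs. Of 15 interferon and NF-kB regulators of the inducible subunits, 9 rose and 2 fell in WT, and 10 rose and 2 fell in Scnn1b-Tg AMs. Nfkb2 (1.54 ± 0.11), Irf1 (1.11 ± 0.10) and Nfkb1 (1.07 ± 0.09) rose most in WT AMs, while Irf8 and Ifngr1, a chain of the interferon-gamma receptor, fell by 0.83 and 0.39 on the log2 scale. With edgeR 0 genes of the 3 lists were called between the genotypes, beside 0.335% of all genes in medium and 0.051% in LPS. In medium 4 class I genes were higher in Scnn1b-Tg AMs at an unadjusted p under 0.05. Lower on that measure were 2 regulators and 3 genes of the first list (Adrm1, Usp14 and Txnl1). Over all genes 7.59% were higher and 5.81% lower on that measure. DESeq2 called Erap1 and Nlrc5 higher and Adrm1, Nfkb2 and Relb lower in medium, beside 2.02% of all genes higher and 1.62% lower. In LPS 6 class I genes and 3 regulators were higher at an unadjusted p under 0.05, beside 4.53% of all genes. DESeq2 called 1 of them, Irf1, beside 0.765% of all genes higher.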

How the data were processed

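Total RNA of 12 samples was made into cDNA with the SMART-Seq v4 kit and sequenced as read pairs of 125 bp. The authors aligned reads to mm10 with HISAT2, ignoring strand, quantified transcripts with StringTie against GENCODE M20, and deposited estimated counts per gene as whole numbers, made from coverage by a StringTie helper script. A read can therefore be worth more than 1 count, and genes with overlapping exons or close copies are uncertain. Library totals were 48.2 to 60.9 M counts, and intervals cover the spread between libraries. Symbols and positions came from GENCODE M21 on mm10, which held 20132 of 20551 IDs. The other 419 IDs carry no symbol here. Pseudogenes of the same name stem (2 in the table) were left out.

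The low-count filter filterByExpr (at least 10 counts in enough libraries and 15 in total) passed 13729 genes, and libraries were scaled with TMM. The quasi-likelihood test of edgeR 4.0.16 (R 4.3.3; glmQLFit and glmQLFTest) was fitted to all 12 libraries with a term per group and for the batch, two-sided, with Benjamini-Hochberg adjustment over all genes tested and a threshold of 0.05. SE is the log2 fold change over the root of its F value, and 95% intervals use the t quantile. CPM are TMM-scaled. Changes by pool and differences by batch are of log2 CPM, and levels between genes are CPM per kb of the union of exons. DESeq2 1.42.0, voom (limma 3.58.1), other scalings, filters and blocks, and leaving out each library were alternatives. An older quasi-likelihood fit of edgeR was run first, and its calls were seen before the newer fit was kept. It called 21 members higher in WT and 34 in Scnn1b-Tg AMs, against 22 and 34. Of all 13729 genes it called 2084 and 2586 higher, against 2131 and 2652. The script was tested on simulated data. Libraries of a group differed beyond sampling noise.

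Medium and LPS libraries of a pool come from the same animals. Their deviations from the group means, with the batch not removed, correlated at 0.14 to 0.34 in the 6 pools. Among the 3 libraries of its genotype and the other treatment, each library correlated best with that of its own pool. The highest values were those of WT 18 (0.34) and Tg 17 (0.33), each alone in its batch within its genotype. The part of the batch was not tested.

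The members and lists were chosen with earlier results of these data known. By the rule for named genes, the text names Psmb5 to Psmb10 and Psme1 to Psme4, the 5 largest called rises and falls of each LPS comparison, the 3 lowest p of a comparison with no call, and the 3 largest called rises and falls of each list in WT AMs. Other names, and the values of members outside a rule's comparison, were added after the values were seen.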

Additional observations from a re-analysis of the deposited data

How the results depend on the processing

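Over the settings that kept all 12 libraries or left out a whole set of them, 13 to 26 members were higher with LPS in WT and 25 to 38 in Scnn1b-Tg AMs. The count over all genes moved too, from 2131 and 2652 of 13729 in the main fit. The fewest members in WT, 13, came without the batch term, beside 1722 of 13729 genes. The fewest in Scnn1b-Tg AMs, 25, came with library totals alone, beside 2119 of 13729 genes. With library totals alone, 1 member was lower in WT (Psmd8, -0.28, adjusted p = 0.048), beside 2768 of 13729 genes. The median log2 change of the members was then 0.16 in WT and 0.36 in Scnn1b-Tg AMs. With the 6 WT libraries alone the WT median was 0.28. DESeq2 called 8 members lower in Scnn1b-Tg medium, beside 1.62% of all genes, and 1 member in the interaction, beside 0.415% in its direction. With the median coding transcript length, the WT gain of the inducible share was 6.60 percentage points. Leaving out 1 library at a time gave 15 to 22 members higher in WT (median 0.21 to 0.31) and 25 to 37 in Scnn1b-Tg AMs, 0 to 1 lower in Scnn1b-Tg medium (median -0.23 to -0.13) and an interaction median of 0.15 to 0.29. In WT the 15 came without WT medium 17 (1763 of 14075 genes higher) or WT LPS 18 (1689 of 14002). The 37 in Scnn1b-Tg AMs came without WT LPS 16 (2828 of 14066), and the 25 without Tg medium 18 (2225 of 14003). With the pool as a replicate block, 26 and 38 members were higher with LPS, beside 2590 and 3059 of 13729 genes. Calls were gained for Psma6, Psmb4, Psmd2 and Psmd4 in WT and for Psma1, Psma2, Psmb5 and Psmd9 in Scnn1b-Tg AMs, and none was lost. WT and Scnn1b-Tg pools share only the numbers 17 and 18, whose deviations correlated at 0.11 to 0.26. With that number as a block in place of the batch, 1 member was lower in Scnn1b-Tg medium (Psmd14, -0.36, adjusted p = 0.043), beside 37 of 13729 genes, and the median of the members was -0.12. The sign turned for Psmb8 between the genotypes in medium without both pools numbered 17 (-0.016) and without Tg medium 17, where leaving out 1 library at a time spanned -0.0022 to 0.19, and for Psmb7 with LPS in WT without WT LPS 16, where it spanned -0.0021 to 0.27. None of these values was called. The causes were not tested. Low counts limited only Psma8 and Psmc3ip. A leave-out fit with 2 libraries in a group assumes the same spread in all groups.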
